A study of Mus musculus with 8 samples.

Results

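The 48 genes described here encode the machinery of mitosis and of the G2/M transition. They were chosen by symbol as a list of mitotic genes, with earlier results of these data known. The shares of all genes printed beside counts of the list therefore describe it and do not test it. All 48 of the 48 were found among the 15047 gene symbols of the deposited expression table. Pancreas RNA of 8 male mice in 3 groups had been sequenced. The lean group were 3 C57BL/6 WT mice on a low-fat diet (LFD). Diet-induced obesity was represented by 3 C57BL/6 WT mice on a high-fat diet (HFD), in which fat supplied 60% of the calories, and genetic obesity by 2 leptin-deficient C57BL/6J; ob/ob mice on a standard diet. Feeding started at an age of 4 weeks and lasted 10 weeks. According to the study, all of these mice had received an orthotopic transplant of mT organoids, which were grown from the pancreatic tumors of genetically engineered mice. The sample labels name the tissue only as pancreas. The ob/ob mice differed from the LFD mice in both genotype and chow, and these cannot be told apart.

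A cell that has copied its DNA enters mitosis when cyclin-dependent kinase 1, bound to B-type cyclins, becomes active. Chromosomes then condense, kinetochores assembled on centromeres attach them to the spindle, a checkpoint delays separation until attachment is complete, and the anaphase-promoting complex (APC/C) marks cyclins and securin for destruction. Transcripts of this machinery peak late in the cell cycle and are low in resting cells, so that in a mostly resting organ such as the pancreas their abundance is widely used as a readout of dividing cells. Many of these genes are controlled through a promoter element called the cell cycle genes homology region (CHR), often near CCAAT boxes bound by the factor NF-Y.

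RefSeq promoters (GRCm38.p6, from 250 bases before to 50 after the start) were matched by symbol for 39 of the 48 genes, as 41 promoters. The 8 stretches printed here run from 120 bases before to 30 after the start, 5′ to 3′ on the strand of the gene, and were chosen after the matches were seen, to show how the motifs sit in a core kinase, both B cyclins, an APC/C activator, the proliferation marker Mki67, and 3 genes that stand out in the expression data. Capitals mark TTTGAA, the CHR, and CCAAT, on either strand.
Cdk1 (chr10:69352883-69353032, minus strand): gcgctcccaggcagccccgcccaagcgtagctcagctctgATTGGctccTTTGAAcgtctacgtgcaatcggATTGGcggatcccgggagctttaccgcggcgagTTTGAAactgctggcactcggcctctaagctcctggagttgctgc
Ccnb1 (chr13:100786457-100786606, minus strand): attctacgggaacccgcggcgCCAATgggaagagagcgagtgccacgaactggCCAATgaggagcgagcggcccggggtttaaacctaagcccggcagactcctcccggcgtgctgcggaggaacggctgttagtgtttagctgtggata
Ccnb2 (chr9:70421525-70421674, minus strand): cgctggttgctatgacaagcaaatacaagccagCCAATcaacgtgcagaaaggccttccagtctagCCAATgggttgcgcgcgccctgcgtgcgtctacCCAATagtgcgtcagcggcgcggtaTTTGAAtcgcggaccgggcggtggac
Cdc20 (chr4:118437314-118437463, minus strand): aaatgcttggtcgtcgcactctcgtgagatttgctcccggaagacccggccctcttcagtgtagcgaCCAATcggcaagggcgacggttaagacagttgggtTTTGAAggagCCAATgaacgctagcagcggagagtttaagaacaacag
Mki67 (chr7:135716350-135716499, minus strand): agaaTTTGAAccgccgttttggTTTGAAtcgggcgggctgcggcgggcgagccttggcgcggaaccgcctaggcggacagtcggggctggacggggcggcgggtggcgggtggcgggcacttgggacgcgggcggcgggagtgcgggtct
Hmmr (chr11:40733408-40733557, minus strand): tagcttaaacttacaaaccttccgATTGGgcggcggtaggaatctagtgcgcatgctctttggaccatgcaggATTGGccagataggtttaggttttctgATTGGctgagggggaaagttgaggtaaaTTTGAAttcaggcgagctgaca
Prc1 (chr7:80294331-80294480, plus strand): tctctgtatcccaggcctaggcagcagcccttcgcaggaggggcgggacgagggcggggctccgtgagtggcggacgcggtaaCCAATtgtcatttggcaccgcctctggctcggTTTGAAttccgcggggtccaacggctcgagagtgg
Spc25 (chr2:69206184-69206333, minus strand): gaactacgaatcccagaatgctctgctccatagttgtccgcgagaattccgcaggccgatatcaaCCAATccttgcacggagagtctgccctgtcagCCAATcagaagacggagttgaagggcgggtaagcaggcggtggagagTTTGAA
Cdk1, Ccnb2, Cdc20, Hmmr, Prc1 and Spc25 held both motifs in the stretch shown. Ccnb1 held CCAAT boxes and no TTTGAA there, while Mki67 held 2 copies of TTTGAA and no CCAAT.

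The CHR was found in 33 of the 41 promoters of the mitotic genes (80.5%), against 17.9% of all 32851 promoters of the same length. CCAAT was found in 31 of 41 (75.6%), against 37.4%, and both together in 28 of 41 (68.3%), against 6.95%. Neither motif contains the other, although adjacent matches can share a base. In a shorter window of 100 bases before to 50 after the start, 78% of the mitotic promoters and 8.01% of all promoters held TTTGAA. A CHR variant, TTCGAA, was found in 3 of 41 promoters (7.32%), against 1.56% of all. These are matches of letters and not measured binding sites. The 31 genes with TTTGAA had a median difference between HFD and LFD of 1.40 on the log2 scale, and the 8 matched genes without it (Birc5, Bub1, Ccnb1, Cenpe, Mad2l1, Ncaph, Nuf2 and Nusap1) had 1.39. Between ob/ob and LFD these medians were 1.86 and 1.91. Among the 8 genes without TTTGAA, Bub1 held the variant TTCGAA.

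**Figure D1:**
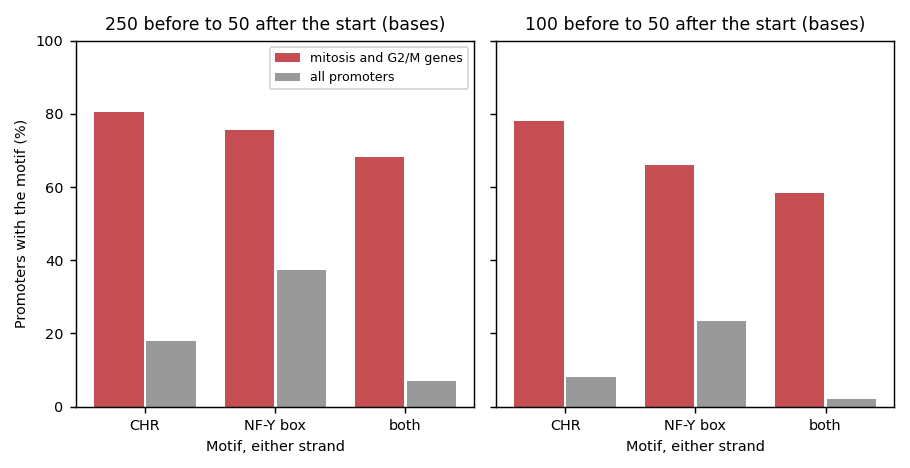
Share of promoters (y axis, percent) that hold the CHR, the CCAAT box bound by NF-Y (NF-Y box) or both (x axis) among the 41 promoters of mitosis and G2/M genes (red) and all 32851 promoters (grey), in a window of 250 bases (left) or 100 bases (right) before to 50 bases after the start. The CHR was found in 80.5% of the mitotic promoters and 17.9% of all promoters in the longer window.

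Mitotic transcripts were more abundant in the obese mice than in the LFD mice, and they differed widely within each obese group. Expression was given as rlog values, a regularized log2 scale corrected for library size, on which a difference of 1 is a doubling and differences of genes with few reads are shrunk. Averaged over the 48 genes, the rlog value was 5.07, 5.57 and 5.20 in LFD replicates 1, 2 and 3. It was 5.69, 6.81 and 7.51 in the HFD replicates and 6.58 and 7.62 in the ob/ob replicates. No obese mouse fell within the range of the LFD mice on this average, but HFD replicate 1 lay only 0.41 above the LFD mean while HFD replicate 3 and ob/ob replicate 2 lay 2.23 and 2.34 above it. In linear terms these are 1.33-fold, 4.68-fold and 5.06-fold.

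The same mice stood high and low in nearly every gene. ob/ob replicate 2 was the highest of the 8 mice in 33 of the 48 genes and HFD replicate 3 in 14, and 1 or the other of these was the highest in 37.9% of all genes. HFD replicate 1 was the lowest HFD mouse in 45 genes, against 44.7% of all genes in the table. ob/ob replicate 2 was above ob/ob replicate 1 in 48 of 48, against 53.5%. Over the 48 genes, the LFD mice had a median SD of 0.34, the HFD mice one of 1.01 and the ob/ob mice one of 0.72. The LFD mice spanned a smaller range than the HFD mice in 46 of the 48 genes, as they did in 69.1% of all genes.

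**Figure D2:**
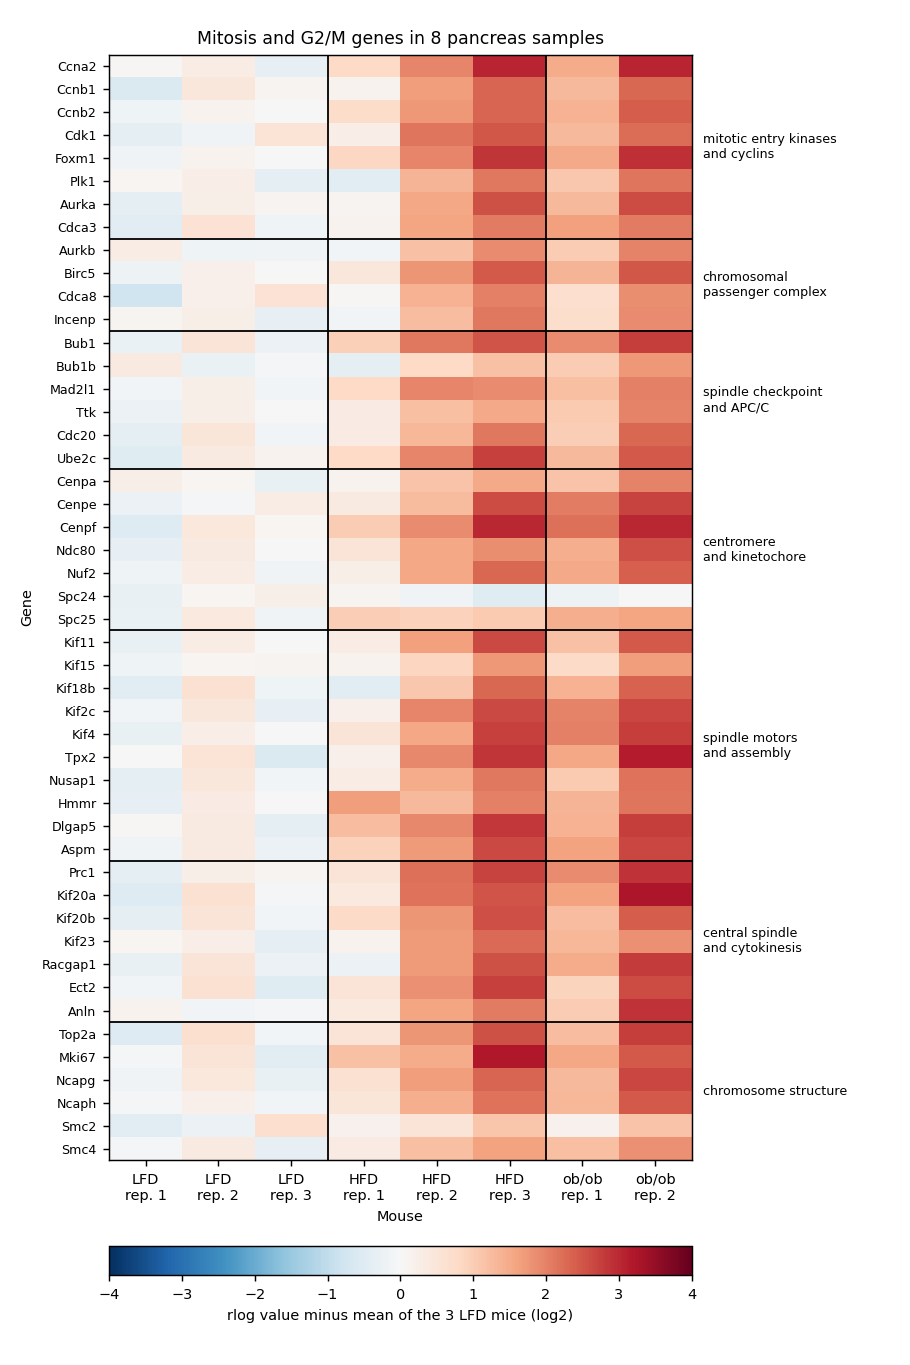
Heat map of the 48 mitosis and G2/M genes (rows, grouped by role) in 8 mice (columns, by group and replicate), colored by the rlog value minus the mean of the 3 LFD mice (log2). HFD replicate 3 and ob/ob replicate 2 are red in nearly all rows, HFD replicate 1 is close to the LFD mice in many rows, and Spc24 is pale throughout.

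To compare the groups, rlog values of all 15047 genes were fitted with limma, and p-values were adjusted by Benjamini-Hochberg over all of them. In HFD against LFD mice, 47 of 48 mitotic genes had a higher mean (52.4% of all genes did), with a median difference of 1.40 compared with 0.03 over all genes. Of the 48, 38 were higher at an unadjusted p under 0.05, against 11.5% of all genes, and 0 were lower, against 8.35%. None of the 48 had an adjusted p under 0.05, nor did any gene of the table (0%), and the smallest adjusted p of the list was 0.170, for Hmmr. A difference of at least 1 was seen in 40 genes (7.88% of all genes) and a difference of -1 or less in 0 (4.24%), and in 24 genes every HFD mouse was above every LFD mouse (12.9% of all genes).

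In ob/ob against LFD mice 47 of 48 genes had a higher mean (53.1% of all genes did). The median difference was 1.88, compared with 0.04 over all genes, and 44 of 48 genes were higher at an unadjusted p under 0.05 (11.6% of all genes), with 0 lower (7.18%). Again no gene had an adjusted p under 0.05 by limma, and the smallest of the list was 0.137, for Spc25. The difference was at least 1 in 46 genes (9.46% of all genes) and -1 or less in 0 (5.19%), and both ob/ob mice were above all 3 LFD mice in 46 genes (24.1%). The 2 exceptions were Spc24 and Smc2. Both comparisons use the same 3 LFD mice and are not independent of each other. When HFD and ob/ob were averaged and set against LFD, 46 genes were higher at an unadjusted p under 0.05 (14.5% of all genes), the median difference was 1.67, and the smallest adjusted p of the list was 0.0810, for Hmmr. Of the 48 genes, 45 differed by at least 1 upward (8% of all genes) and 0 by at least 1 downward (4.35%), and the 5 obese mice did not overlap the LFD mice in 24 higher (9.4%) and 0 lower genes (9.05%). After centring each mouse on its median, 45 of the 48 mitotic genes were higher at an unadjusted p under 0.05 in that comparison (12.1% of all genes). Among all genes at that p in either direction, 46.4% rather than 57.2% were higher ones.

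These counts depended on single mice. Without HFD replicate 1, 42 of the 48 genes had an adjusted p under 0.05 in HFD against LFD, with 18.7% of all genes. The 38 genes at an unadjusted p under 0.05 became 20, 21, 19 and 16 without LFD replicate 1, LFD replicate 3, HFD replicate 2 and HFD replicate 3, respectively. Shares of all genes in these last fits are not given here, so whether the change was particular to mitotic genes was not tested. In ob/ob against LFD, the median difference ran from 1.32 to 2.43 when 1 mouse was left out.

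**Figure D3:**
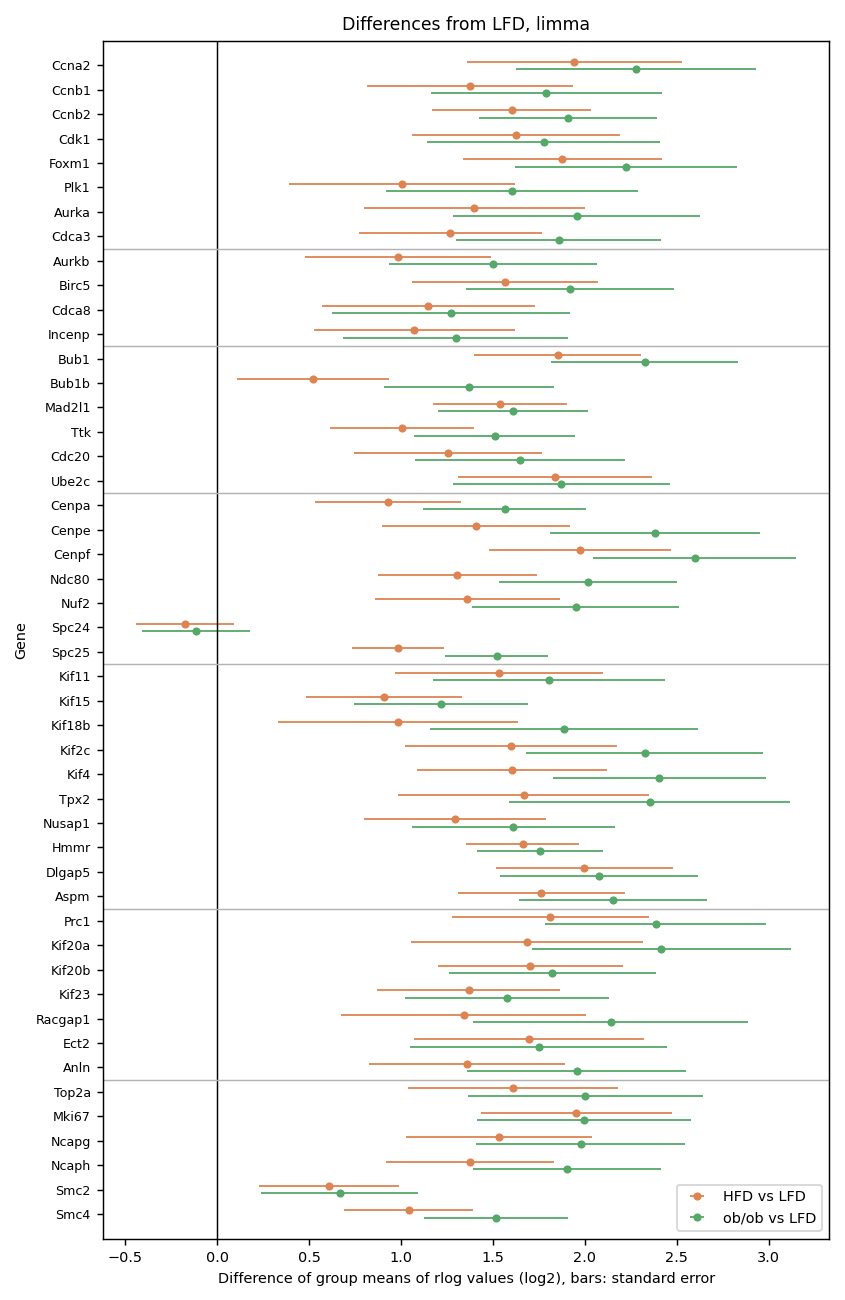
Difference of the mean rlog value (x axis, log2) of HFD mice (orange) and ob/ob mice (green) from LFD mice for each of the 48 genes (y axis, grouped by role), with the standard error from limma as bars. All genes but Spc24 lie to the right of 0, between 0.52 and 2.60.

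Mki67, which encodes the Ki67 antigen coating mitotic chromosomes and used in histology to count cycling cells, had rlog values of 7.60, 8.17 and 7.24 in LFD mice. It was at 8.83, 9.16 and 10.87 in HFD mice and at 9.21 and 10.12 in ob/ob mice, so that no obese mouse overlapped the LFD range. The difference was 1.95 ± 0.52 (SE) in HFD (3.87-fold, unadjusted p = 0.00494 and adjusted p = 0.180, limma) and 2.0 ± 0.58 in ob/ob mice (3.99-fold, adjusted p = 0.200). A two-sided exact permutation test of the 5 obese against the 3 LFD mice gave a difference of 1.97 with p = 0.0357, the smallest value that these 56 arrangements allow. This p is unadjusted, and every gene without overlap between obese and LFD mice reaches it. Of all genes, 9.4% were higher and 9.05% lower without overlap. Among the other genes of chromosome structure, Top2a, the topoisomerase that untangles sister chromatids, was at 7.39, 8.56 and 7.81 in LFD, 8.43, 9.69 and 10.47 in HFD, and 9.17 and 10.68 in ob/ob mice. Here HFD replicate 1 lay below LFD replicate 2, and the differences were 1.61 ± 0.57 and 2.0 ± 0.64.

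The other 4 genes of this group encode condensin subunits, and Ncaph and Smc4 had differences of 1.37 ± 0.46 and 1.04 ± 0.35 in HFD mice. Ncapg, which belongs to condensin I alone, was at 4.51 to 5.24 in LFD, 5.41 to 7.14 in HFD, and 6.09 and 7.48 in ob/ob mice, with differences of 1.53 ± 0.51 and 1.98 ± 0.57. Smc2, the ATPase shared by both condensins, had the smallest difference of this group, 0.61 ± 0.38 in HFD (unadjusted p = 0.148) and 0.67 ± 0.43 in ob/ob mice (unadjusted p = 0.154). Its LFD values of 7.08, 7.27 and 8.17 overlapped those of both obese groups. Of the 6 genes of chromosome structure, 5 were higher at an unadjusted p under 0.05 in each comparison (11.5% of all genes in HFD and 11.6% in ob/ob mice).

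Genes of mitotic entry formed a group of 8, made of kinases and cyclins together with Foxm1 and Cdca3. Of these 8, 7 in HFD (11.5% of all genes) and 8 in ob/ob mice (11.6%) were higher at an unadjusted p under 0.05. Cdk1, the kinase that drives entry, was at 5.54, 5.77 and 6.47 in LFD mice, 6.19, 8.06 and 8.40 in HFD mice, and 7.24 and 8.17 in ob/ob mice. HFD replicate 1 was inside the LFD range and the other 4 obese mice were above it. The difference was 1.63 ± 0.57 in HFD (adjusted p = 0.204, limma) and 1.78 ± 0.63 in ob/ob mice (adjusted p = 0.224). Its partner Ccnb1 (cyclin B1) behaved likewise, with 5.04 to 6.08 in LFD, 5.75, 7.28 and 7.95 in HFD, and 6.90 and 7.91 in ob/ob mice, and differences of 1.38 ± 0.56 and 1.79 ± 0.63.

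Ccna2, cyclin A2, which acts from S phase into mitosis, had the largest difference of this group in both comparisons, 1.94 ± 0.59 and 2.28 ± 0.65. It was at 5.20 to 5.84 in LFD mice and at 6.34, 7.50 and 8.60 in HFD mice, and reached 7.04 and 8.60 in ob/ob mice, so that only the LFD mice stood apart. Foxm1, the transcription factor that activates many G2/M genes, was at 3.32, 3.62 and 3.45 in LFD, 4.29, 5.42 and 6.31 in HFD, and 4.98 and 6.39 in ob/ob mice. No obese mouse was within the LFD range, and the means were higher by 1.88 ± 0.54 and 2.22 ± 0.60. Plk1, the polo-like kinase of centrosomes and kinetochores, had the smallest difference of the group, and HFD replicate 1 (3.11) lay below the 3 LFD mice (3.20 to 3.83) while the other 4 obese mice were at 4.63 to 5.68. Its difference was 1.00 ± 0.61 in HFD (unadjusted p = 0.137) and 1.60 ± 0.69 in ob/ob mice (unadjusted p = 0.0452, adjusted p = 0.261). Aurka, the centrosomal Aurora kinase, was at 3.84 to 4.45 in LFD mice with HFD replicate 1 inside that range at 4.31, and the differences were 1.40 ± 0.60 and 1.95 ± 0.67.

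**Figure D4:**
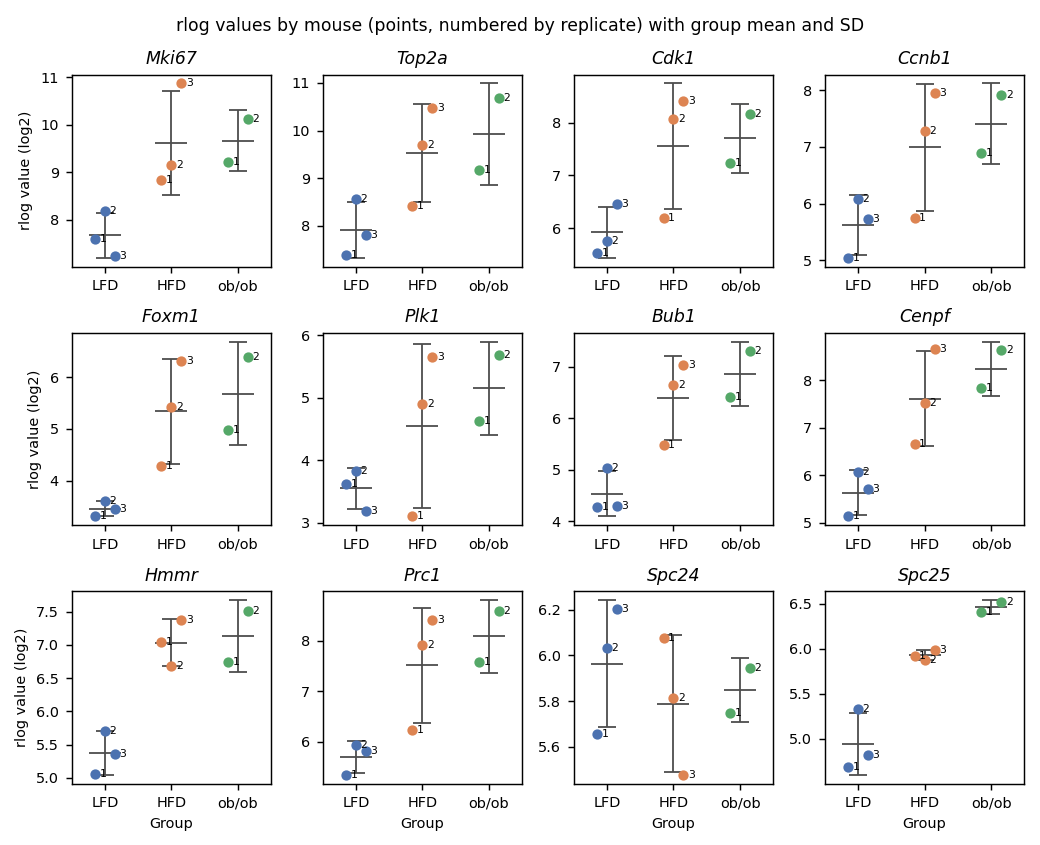
rlog values (y axis, log2) of 12 genes in LFD (blue), HFD (orange) and ob/ob (green) mice, each point 1 mouse numbered by its replicate, with the group mean (line) and SD (bars). The y axes differ between panels, do not start at 0, and are not comparable between genes. HFD replicate 1 lies next to the LFD mice for Plk1, Ccnb1 and Cdk1 but above them for Hmmr and Spc25, and the 3 groups overlap for Spc24.

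The chromosomal passenger complex, which corrects wrong attachments and later directs cytokinesis, is made of 4 of the genes, of which 1 in HFD (11.5% of all genes) and 2 in ob/ob mice (11.6%) were higher at an unadjusted p under 0.05. In the mean of both obese groups against LFD, 4 of 4 were (14.5%). Birc5 (survivin) was at 4.86, 5.28 and 5.08 in LFD, 5.54, 6.83 and 7.54 in HFD, and 6.43 and 7.56 in ob/ob mice, with differences of 1.56 ± 0.51 and 1.92 ± 0.56. Aurkb, the kinase of the complex, was at 4.28 to 4.72 in LFD mice and at 4.31 in HFD replicate 1, with a difference of 0.98 ± 0.51 in HFD (unadjusted p = 0.0846) and 1.5 ± 0.56 in ob/ob mice (unadjusted p = 0.0271). Cdca8 (borealin) varied most among LFD mice, from 3.68 to 5.04, and its differences of 1.15 ± 0.58 and 1.27 ± 0.65 did not pass an unadjusted p of 0.05. Incenp, the scaffold of the complex, had differences of 1.07 ± 0.55 and 1.30 ± 0.61, which did not pass either. All 4 genes had higher means in both obese groups.

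The spindle checkpoint and its target, the APC/C, formed a group of 6 genes. Of these, 5 in HFD (11.5% of all genes) and 6 in ob/ob mice (11.6%) were higher at an unadjusted p under 0.05. Bub1, a checkpoint kinase at kinetochores, was at 4.28, 5.05 and 4.29 in LFD, 5.48, 6.65 and 7.05 in HFD, and 6.42 and 7.31 in ob/ob mice. No obese mouse overlapped the LFD mice, and the differences were the largest of this group, 1.85 ± 0.45 (3.61-fold, adjusted p = 0.179, limma) and 2.32 ± 0.51 (5.01-fold, adjusted p = 0.157). Bub1b, which encodes the checkpoint protein BubR1, had the smallest difference in HFD mice, 0.52 ± 0.41 (unadjusted p = 0.239), with HFD replicate 1 (5.92) below the LFD range of 6.04 to 6.67. In ob/ob mice it was at 7.33 and 8.04, a difference of 1.37 ± 0.46 (unadjusted p = 0.0165). Mad2l1, the inhibitor of Cdc20, was at 5.46 to 5.81 in LFD, 6.38 to 7.53 in HFD, and 6.78 and 7.61 in ob/ob mice, and both obese groups were clear of the LFD range.

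Cdc20 and Ube2c drive the exit from mitosis. Cdc20, the activator that the checkpoint holds back, was at 4.73, 5.62 and 5.03 in LFD, 5.45, 6.47 and 7.22 in HFD, and 6.13 and 7.42 in ob/ob mice, so that only HFD replicate 1 overlapped the LFD mice. The difference was 1.26 ± 0.51 in HFD and 1.65 ± 0.57 in ob/ob mice. Ube2c, the ubiquitin-conjugating enzyme that works with the APC/C, was at 3.48 to 4.33 in LFD, 4.77 to 6.73 in HFD, and 5.28 and 6.42 in ob/ob mice. Both obese groups were clear of the LFD range, with differences of 1.84 ± 0.53 and 1.87 ± 0.59.

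Centromere and kinetochore genes included Cenpf, with the largest difference of the 48 in ob/ob mice. They also included Spc24, the 1 gene with a lower mean in the obese groups. Of the 7 genes, 6 were higher at an unadjusted p under 0.05 in each comparison (11.5% of all genes in HFD and 11.6% in ob/ob mice). Cenpf, a large protein of the outer kinetochore, was at 5.14, 6.07 and 5.71 in LFD, 6.66, 7.52 and 8.66 in HFD, and 7.83 and 8.64 in ob/ob mice. The 5 obese mice exceeded the LFD range, with differences of 1.97 ± 0.49 in HFD (3.93-fold) and 2.60 ± 0.55 in ob/ob mice (6.05-fold, unadjusted p = 0.00127, adjusted p = 0.152, limma). Cenpa, the histone H3 variant that marks centromeres, differed by 0.93 ± 0.40 and 1.56 ± 0.44, with HFD replicate 1 (5.76) inside the LFD range of 5.32 to 5.86.

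The NDC80 complex, which joins kinetochores to microtubules, is made of Ndc80, Nuf2, Spc24 and Spc25, and its transcripts are given 1 by 1. Ndc80 itself was at 4.13 to 4.83 in LFD, 5.0 to 6.32 in HFD, and 5.93 and 7.04 in ob/ob mice, with differences of 1.31 ± 0.43 and 2.02 ± 0.48, and Nuf2 had differences of 1.36 ± 0.50 and 1.95 ± 0.56. Spc25, singled out after its values were seen, was at 4.68, 5.33 and 4.81 in LFD, 5.92, 5.87 and 5.98 in HFD, and 6.41 and 6.52 in ob/ob mice. Of the 48 genes it had the smallest spread among the HFD mice, and it was the 1 gene in which both ob/ob mice were above all 3 HFD mice (7.92% of all genes). Its differences from LFD were 0.99 ± 0.25 and 1.52 ± 0.28 (unadjusted p = 0.000501, adjusted p = 0.137, limma). Spc24 was at 5.66, 6.03 and 6.20 in LFD, 6.07, 5.81 and 5.48 in HFD, and 5.75 and 5.95 in ob/ob mice, with overlap of all groups. Its differences of -0.18 ± 0.26 and -0.12 ± 0.30 (unadjusted p = 0.525 and 0.706) were the only ones below 0, and the second was 0.0040 without LFD replicate 3.

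Spindle motors and assembly factors were the largest group. At an unadjusted p under 0.05, 8 of 10 were higher in HFD (11.5% of all genes) and 10 of 10 in ob/ob mice (11.6%). Kif11, the kinesin that pushes spindle poles apart, was at 5.84, 6.44 and 6.15 in LFD, 6.45, 7.78 and 8.78 in HFD, and 7.30 and 8.59 in ob/ob mice. HFD replicate 1 exceeded the highest LFD mouse only in the second decimal, and the differences were 1.53 ± 0.57 and 1.81 ± 0.63. Tpx2, which activates Aurka on the spindle, was at 4.46 to 5.58 in LFD, 5.25, 6.96 and 7.90 in HFD, and 6.59 and 8.19 in ob/ob mice, with differences of 1.67 ± 0.68 and 2.35 ± 0.76. Kif4, a chromosome-bound kinesin, had the largest difference of the group in ob/ob mice, 2.40 ± 0.58 (5.29-fold), and Kif15 the smallest in both comparisons, 0.91 ± 0.42 (1.88-fold) in HFD and 2.32-fold in ob/ob mice.

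Dlgap5, a microtubule-bundling protein, had the largest difference of all 48 genes in HFD mice. It was at 4.84, 5.15 and 4.42 in LFD, 6.03, 6.73 and 7.63 in HFD, and 6.20 and 7.56 in ob/ob mice, with differences of 2.0 ± 0.48 (3.99-fold, adjusted p = 0.177, limma) and 2.08 ± 0.54. Hmmr, a spindle protein first described as a hyaluronan receptor and singled out after its values were seen, was at 5.05, 5.71 and 5.36 in LFD, 7.04, 6.68 and 7.38 in HFD, and 6.75 and 7.51 in ob/ob mice. HFD replicate 1 was here above HFD replicate 2, as it also was for Spc24 and Spc25. The difference was 1.66 ± 0.31 in HFD (3.16-fold, unadjusted p = 0.000512, adjusted p = 0.170, limma) and 1.76 ± 0.34 in ob/ob mice.

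In central spindle and cytokinesis genes, 6 of 7 in HFD (11.5% of all genes) and 7 of 7 in ob/ob mice (11.6%) were higher at an unadjusted p under 0.05. Prc1, which bundles the antiparallel microtubules of the midzone, was at 5.34, 5.94 and 5.82 in LFD, 6.22, 7.91 and 8.41 in HFD, and 7.58 and 8.59 in ob/ob mice, with no overlap of either obese group with LFD. Its difference was 1.81 ± 0.54 in HFD (3.51-fold), the largest of the group, and 2.38 ± 0.60 in ob/ob mice (5.22-fold, adjusted p = 0.182, limma). Kif20a, a kinesin of the midzone, was the largest in ob/ob mice, at 6.59 and 8.23 compared with 4.47 to 5.61 in LFD mice, a difference of 2.41 ± 0.70. Anln (anillin), a scaffold of the contractile ring, was at 6.21 to 6.48 in LFD, 6.73, 7.90 and 8.42 in HFD, and 7.34 and 9.22 in ob/ob mice, with all obese mice above the LFD range. Racgap1, the GTPase-activating subunit of centralspindlin, had the smallest difference in HFD mice, 1.34 ± 0.67 (unadjusted p = 0.0776), with HFD replicate 1 at 5.28 and the LFD mice at 5.22 to 6.03. Kif23, its kinesin partner, had the smallest in ob/ob mice, 1.58 ± 0.56.

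In HFD replicate 1, taken across roles, 24 of the 48 genes were above the highest LFD mouse, against 26.4% of all genes. Another 2 (Plk1 and Bub1b) were below the lowest LFD mouse, against 27.8% of all genes. The other 22 were inside the LFD range, as were the remaining genes of the table. Ccna2, Foxm1, Bub1, Cenpf, Dlgap5, Hmmr and Mki67 were among the 24, whereas Ccnb1, Cdk1, Aurka, Aurkb, Cdc20 and Tpx2 were within the range. In each of HFD replicates 2 and 3 and ob/ob replicates 1 and 2, 46 or 47 of the 48 were above the highest LFD mouse. The shares of all genes above it were 38.2% and 39.7% in these HFD mice and 31.2% and 41.2% in these ob/ob mice. In all 4 mice together, 46 genes were above it (18.4% of all genes). Coordinates from the annotation show that exons of 10 of the 48 genes overlap those of another protein-coding gene. These genes include Ccna2, Cdc20, Foxm1, Kif20a, Kif4, Ncapg, Prc1 and Ube2c. The other gene was on the opposite strand for 9 of the 10 and on the same strand for 1, Foxm1. Reads of these pairs may have been assigned to either gene.

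HFD and ob/ob mice were set against each other to ask whether the 2 kinds of obesity differ. All 48 genes had a higher mean in ob/ob mice (51.7% of all genes), with a median difference of 0.43, compared with 0.01 over all genes. None was higher or lower at an unadjusted p under 0.05 by limma (2.28% and 1.63% of all genes), and every adjusted p was 1.00 to 2 decimals. The largest difference was that of Cenpe, a kinesin of kinetochores, 0.98 ± 0.57 (unadjusted p = 0.123), and that of Mki67 was 0.04 ± 0.58. The direction of the median rested on single mice: it was -0.06 without HFD replicate 1 and -0.10 without ob/ob replicate 2.

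Genes related to the 48 were counted in the same fits, in which 11.5% of all genes in HFD and 11.6% in ob/ob mice were higher at an unadjusted p under 0.05 and 8.35% and 7.18% were lower. Of 75 other mitotic genes, 37 in HFD and 43 in ob/ob mice were higher at an unadjusted p under 0.05 and 0 were lower, with median differences of 1.02 and 1.21. Spag5 (astrin), which anchors spindle poles, had the largest differences, 1.86 ± 0.69 and 2.56 ± 0.77, while Pttg1 (securin) and Cenpw, a kinetochore protein, had the lowest, -0.22 ± 0.27 in HFD and -0.12 ± 0.31 in ob/ob mice. Of 50 genes of DNA replication and the G1/S transition, which act before mitosis, 19 and 20 were higher and 0 were lower, with medians of 0.73 and 0.86. The largest were those of the exonuclease Exo1 in HFD mice, 1.71 ± 0.87, and of Pole, the catalytic subunit of a replicative polymerase, in ob/ob mice, 1.93 ± 0.55. The smallest were those of E2f2 in HFD mice, 0.06 ± 0.53, and of the flap endonuclease Fen1 in ob/ob mice, 0.27 ± 0.28.

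Genes that restrain the cycle were counted likewise. Of 15 mitotic brakes and CDK inhibitors, 4 were higher in each comparison and 1 was lower in HFD mice, with medians of 0.35 and 0.72, and the share that was lower was no larger than that of all genes. Cdkn2a, which encodes the inhibitor p16, had the largest differences, 1.66 ± 0.77 in HFD (unadjusted p = 0.0606) and 1.98 ± 0.86 in ob/ob mice (unadjusted p = 0.0479). The antiproliferative genes Rprm and Btg2 had the lowest, -0.88 ± 0.64 in HFD and -0.71 ± 0.35 in ob/ob mice, respectively. The DREAM and MuvB complexes bind the CHR and hold these genes silent in resting cells. Of their 13 genes, 1 in HFD and 2 in ob/ob mice were higher and 0 and 1 lower, with medians of 0.02 and -0.01, so that the share in HFD mice was below that of all genes. The largest differences were those of Mybl2, the activator that joins MuvB in dividing cells, 1.75 ± 0.46 and 1.58 ± 0.51. Lin37 had the lowest in HFD mice, -0.58 ± 0.30, and Tfdp2 in ob/ob mice, -0.92 ± 0.33 (unadjusted p = 0.0232).

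The tissue label was checked against markers, and the makeup of the samples differed between mice. Digestive enzymes and other genes of acinar cells, the bulk of the exocrine pancreas, were high in all 8 mice. The mean rlog value of 25 such genes was 17.4, 17.5 and 17.8 in LFD and 17.6 in HFD replicate 1, but 15.6 and 13.6 in HFD replicates 2 and 3, and 16.9 and 14.0 in ob/ob replicates 1 and 2. The mice with the lowest acinar means, HFD replicate 3 and ob/ob replicate 2, were the 2 with the highest mitotic means, and HFD replicate 1, with an acinar mean inside the LFD range, had the lowest mitotic mean of the obese mice. ob/ob replicate 1 had an acinar mean of 16.9, below the LFD range of 17.4 to 17.8, and had 46 of the 48 mitotic genes above the LFD mice (31.2% of all genes). In bulk tissue, fewer cells of a type and less RNA per cell cannot be told apart.

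With the acinar mean as a covariate, 16 of the 48 genes in HFD and 31 in ob/ob against LFD were higher at an unadjusted p under 0.05 (5.95% and 6.31% of all genes), and the median differences were 0.58 and 0.94. Fibroblast markers moved with the mitotic genes as well. The mean of 11 such genes was 8.87 to 9.32 in LFD, 9.70 to 10.4 in HFD, and 10.1 and 10.8 in ob/ob mice, and 6 and 9 of the 11 were higher at an unadjusted p under 0.05. The mean of 11 macrophage markers was 8.62 to 9.10 in LFD, 9.40 to 10.3 in HFD, and 10.2 and 10.9 in ob/ob mice, with 7 and 11 of the 11 higher. Of 7 neutrophil markers, 7 and 3 were higher, and of 13 ductal markers 7 and 1. For the fibroblast, macrophage, neutrophil and ductal lists, the share of all genes was 11.5% and 11.6%. Of the ductal markers, 0 and 2 were lower at an unadjusted p under 0.05 (8.35% and 7.18% of all genes), and 10 and 5 had a higher mean. Acinar markers were lower at that threshold in 2 of 25 in each comparison (8.35% and 7.18% of all genes). All 25 were lower by at least 1 in both (4.24% and 5.19% of all genes), with medians of -1.97 and -2.10, and in 22 of the 25 both ob/ob mice were below all 3 LFD mice (21.8% of all genes), while the 3 HFD mice were so in 4 (12.3%). In HFD and ob/ob mice, 0 and 6 of 12 islet, 2 and 0 of 9 endothelial, 0 and 1 of 6 germinal centre B cell, 0 and 0 of 8 erythroid, and 1 and 1 of 8 adipocyte markers were higher (11.5% and 11.6% of all genes). Of the 8 adipocyte markers, 1 and 1 were lower (8.35% and 7.18%). HFD replicate 3, with the highest mitotic mean of the HFD mice, stood apart in its erythroid mean of 10.3, against 6.95 to 8.66 in the other mice. All 8 erythroid markers had a higher mean in HFD than in LFD mice, but 0 of 8 had a higher mean in ob/ob than in LFD mice. The mouse with the highest mitotic mean of all, ob/ob replicate 2, had the lowest erythroid mean (6.95). Of 9 B and 8 T lymphocyte markers, 0 were higher in either comparison, and their means were highest in LFD replicate 2 (means of 6.00 and 5.06), compared with 3.54 to 4.28 and 3.35 to 4.54 in the other mice. LFD replicate 2 was also the highest LFD mouse in 38 of the 48 mitotic genes (34.6% of all genes). The part of these cell types in the mitotic differences was not tested, and transplanted and host cells cannot be told apart.

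**Figure D5:**
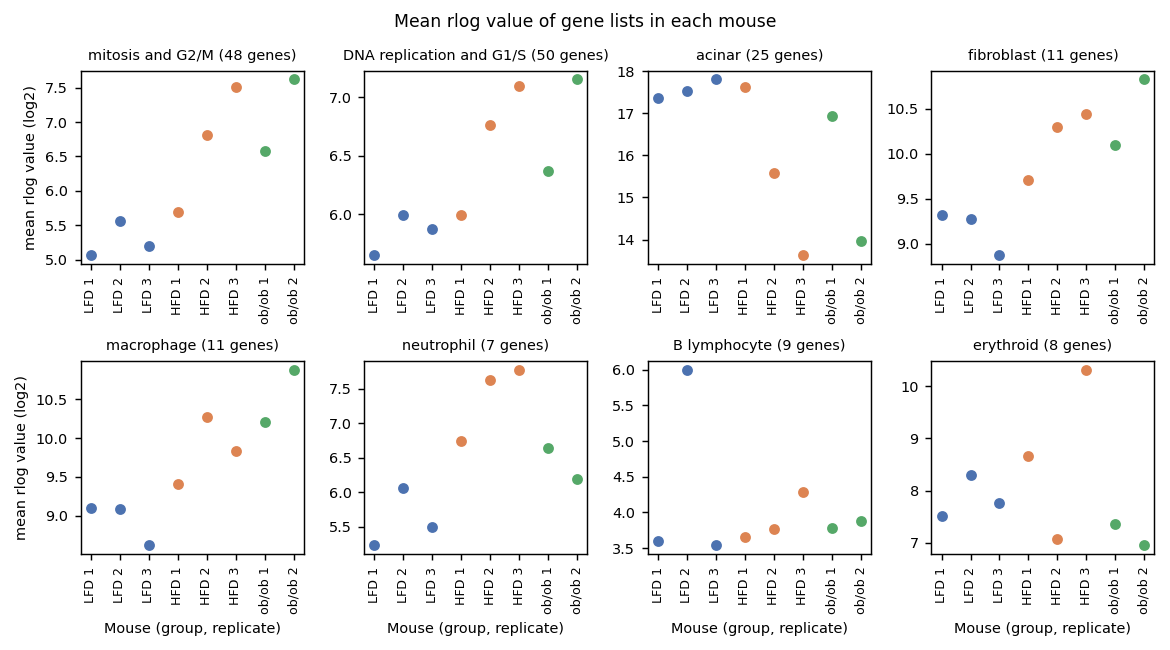
Mean rlog value (y axis, log2; scales differ between panels and do not start at 0) of 8 gene lists in each mouse (x axis, group and replicate), with LFD in blue, HFD in orange and ob/ob in green. The mitotic mean is highest in HFD replicate 3 and ob/ob replicate 2 (7.51 and 7.62), where the acinar mean is lowest (13.6 and 14.0), and the B lymphocyte mean is highest in LFD replicate 2 (6.00).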

How the data were processed

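Pancreas RNA was sequenced from 3 LFD, 3 HFD and 2 ob/ob mice, grouped by the diet or genotype and the replicate number in the labels. Replicates are taken as separate animals. The authors sequenced paired-end libraries, quantified transcripts of Gencode M18 (GRCm38.p6) with Salmon 0.11.3, summarized them per gene with tximport, and applied the rlog function of DESeq2 1.22.2. The deposited values are these rlog values, on a log2 scale, for 15047 gene symbols. The filter that left these genes is not given in the sources used here. The depth is unknown, so no counting error was computed, and levels were not compared between genes because rlog values are not per length. The shrinkage of rlog lowers the differences of genes with few reads. Salmon shares reads between similar or overlapping transcripts by probability.

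Values were fitted with limma 3.58.1 in R 4.3.3, with 1 mean per group, all 8 mice, and empirical Bayes with a trend on the mean. DESeq2 tests were not run because the values are not counts. Means of the HFD and ob/ob groups were averaged for the comparison of obese with LFD mice. p-values are two-sided and were adjusted by Benjamini-Hochberg over all 15047 genes. The exact permutation test of Mki67 used SciPy 1.17.1 in Python 3.11.15. The limma step was tested on simulated data.

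The 48 genes, their 7 role groups, the related lists and the marker lists were written by hand and chosen with earlier results of these data known. All 48 are counted. Values are given for 22 genes picked by role, for the largest and smallest difference of each role group in HFD and ob/ob against LFD, and, in related lists, for the largest difference each way. Other genes named with values were chosen after these were seen. Overlaps of exons come from Gencode M21 on GRCm38, another release than that of the authors, in which 48 of 48 genes were found. Promoter sequences are those of RefSeq on GRCm38.p6, and motifs were searched on both strands.

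Alternatives were a fit without the trend, with only those mice that a comparison names, with genes of a mean rlog of 5 or more, after subtracting the median of each mouse, after quantile normalization, with array weights, with the replicate number as a factor (replicate block), with the acinar mean as a covariate, and without each mouse in turn. No pairing of mice by replicate number is stated in the sources used here. The full genotype of the transplanted organoids is not reported here.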

Additional observations from a re-analysis of the deposited data

How the results depend on the processing

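Depth is unknown and no count test could be run, groups held 3, 3 and 2 mice, and array weights did not converge (HFD replicate 2 had a weight of 9.36 and HFD replicate 1 one of 0.273), so their counts are weak evidence. In HFD against LFD, 16 mitotic genes had an unadjusted p under 0.05 with the acinar covariate (5.95% of all genes were higher at that p). The number was 16 to 46 when leaving out 1 mouse. At an adjusted p under 0.05 it was 46 with array weights (44.2% of all genes) and 0 to 42 when leaving out 1 mouse. The 42 were found without HFD replicate 1 (18.7% of all genes). The median difference was 0.58 with the acinar covariate and 0.98 to 1.98 when leaving out 1 mouse. In ob/ob against LFD, 14 to 47 genes had an unadjusted p under 0.05 when leaving out 1 mouse. At an adjusted p it was 1 gene with only the groups compared (0.253% of all genes) and 0 to 4 when leaving out 1 mouse. The median was 0.94 with the acinar covariate and 1.32 to 2.43 when leaving out 1 mouse. In ob/ob against HFD, the number at an unadjusted p was 1 with array weights and 5 with the acinar covariate. Of all genes, 2.66% and 4.28%, respectively, were higher at that p. When leaving out 1 mouse the number was 0 to 5, and the median ran from -0.10 to 0.95, with -0.06 without HFD replicate 1. For the mean of both obese groups against LFD, 29 genes at an unadjusted p remained with the acinar covariate (6.67% of all genes were higher). The number was 37 to 47 when leaving out 1 mouse. At an adjusted p there were 46 with array weights (28.5% of all genes) and 46 without HFD replicate 1 (22.1% of all genes). Over all fits that left out 1 mouse there were 0 to 46. The median was 0.79 with the acinar covariate and 1.39 to 1.97 when leaving out 1 mouse. Shares of all genes over the ranges from leaving out 1 mouse are not given here. With the acinar covariate the difference from LFD was -0.051 for Plk1 and -0.15 for Bub1b in HFD and 0.056 for Spc24 in ob/ob mice, and that of Spc24 ran from -0.27 to 0.0040 when leaving out 1 mouse, the latter without LFD replicate 3. Where these changes do not come from the number of mice or genes fitted, the cause was not tested. Restricting the fit to the groups compared does not apply to the mean of both obese groups, which uses all mice.

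Compared with LFD mice, a replicate block in the model gave 42 genes at an unadjusted p under 0.05 for HFD mice and 47 for ob/ob mice. It gave 47 for both obese groups and 3 between the obese groups, while 0 had an adjusted p under 0.05. Of all genes, 12.7%, 12.5%, 15.7% and 1.89%, respectively, were higher at that unadjusted p. The labels do not say whether same-numbered mice belong together. Same-numbered mice had correlations of their deviations from the group means from -0.28 to 0.59. These cannot settle whether the mice were paired, because the deviations of the 2 ob/ob mice are equal and opposite by construction.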
